A study of Drosophila melanogaster with 11 samples.

Results

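The mitochondrial ribosomal protein genes were taken as all rows of the count matrices whose symbol begins with mRpL (large ribosomal subunit) or mRpS (small subunit), which gave 72 of the 16503 genes, 46 of them mRpL and 26 mRpS. Their transcripts were counted by Drop-seq, in which single cells are captured in droplets and each captured molecule carries a unique molecular identifier (UMI), in wing discs of Drosophila melanogaster larvae that wandered at the end of the third instar at 25 °C, after the pouch had been cut away. The 8 wild-type libraries comprised 4 of the driver stock alone (P{1151-GAL4}; +;+, replicates 1 to 4) and 4 in which the driver was combined with a control hairpin against mCherry (P{VALIUM20-mCherry}attP2, here 1151>mCherry-RNAi, replicates 5 to 8), and 3 further libraries carried a hairpin against Ama (P{TRiP.Ama_HMS00297}attP2, here 1151>Ama-RNAi, replicates 1, 4 and 5). All 11 libraries thus carried the 1151-GAL4 driver, which is specific to the muscle precursors, so that the hairpins were directed at the myoblasts and not the epithelium. The study set out to compare the kinds of myoblasts that build the flight muscles and, with Ama-RNAi, to ask what the adhesion protein Amalgam does in them.

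Mitochondria carry their own ribosomes, which translate the few proteins encoded by mitochondrial DNA, all of them in flies subunits of the respiratory chain or of ATP synthase. The ribosomal RNA comes from the mitochondrial genome, whereas every protein of these ribosomes is encoded in the nucleus, made in the cytoplasm and imported. Many of the proteins have a counterpart in bacterial ribosomes, and others occur only in mitochondria. Flight muscle is among the tissues richest in mitochondria, and the myoblasts of the wing disc are its precursors.

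Barcodes with 200 to 2500 detected genes were kept, 26085 of 87813, with 697 to 6956 per library. A barcode was called a myoblast when it held at least 2 UMIs of Him, zfh1, twi and CG9650 together and more than 2 times as many as of Fas3, grh, ImpE1 and ImpE2, an epithelial cell in the reverse case, and a tracheal cell with at least 2 UMIs of trh and Cht5, which took precedence. In wild type this gave 5134 myoblasts (144 to 1948 per library), 10092 epithelial cells (325 to 3295), 114 tracheal cells (2 to 46) and 6701 barcodes with no class. Of the tracheal cells, 94 also met the epithelial rule and 1 the myoblast rule. Libraries held 1335977 to 10548893 UMIs, and 19 barcodes were shared over the 55 pairs of libraries. Markers that the rule did not use went with the class names: the summed level of 4 further myoblast markers was 2002 to 2732 counts per 1000000 UMIs of the class (CPM, the unit of all levels here) in wild-type myoblasts and 185 to 256 CPM in epithelium, and that of 4 further epithelial markers was 37.6 to 180 in myoblasts and 970 to 1760 in epithelium. Markers of fat body and haemocytes reached at most 9.08 and 22.6 CPM in myoblasts and 4.10 and 10.6 in epithelium.

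All 72 members had UMIs in myoblasts and in epithelium. Wild-type cells held 45365 member UMIs in all, and a single member held between 168 and 1940, with a median of 573. The 5 with the most UMIs were mRpL33 (1940), mRpS21 (1511), mRpS5 (1467), mRpL12 (1386) and mRpL27 (1372), which made up 16.9% of the member UMIs, so that no single gene set the summed level. The mean level over libraries, in CPM, ran from 7.75 to 67.2 across members in myoblasts and from 5.17 to 60.0 in epithelium, and the members kept much the same order in both (Spearman's rho of 0.87 across the 72 genes, a description in which both classes come from the same libraries). Between libraries a member's level varied with a median coefficient of variation of 47.2% in myoblasts and 31.5% in epithelium. In the BDGP6 annotation the members lie on every large chromosome arm, 12 on 2L, 11 on 2R, 17 on 3L, 21 on 3R and 11 on X. Of the 72, 41 overlap a gene on the other strand and 2 a gene on the same strand. Whether the counting used the strand is not given in the sources used here, so reads in a shared stretch could not be assigned with certainty.

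Summed over the 72 genes, wild-type myoblasts held more of these transcripts than the epithelium around them. The level was 1682 at the lowest, 1981 at the median and 2190 CPM at the highest of the 8 libraries in myoblasts, with a mean of 1967 ± 147 (SD, n = 8). In epithelium it was 1308 at the lowest, 1697 at the median and 1889 at the highest, with a mean of 1660 ± 192 (SD, n = 8). The ranges of the classes overlapped, but within a library the myoblasts were above the epithelium in 7 of 8, by a mean of 0.25 ± 0.19 on the log2 scale (SD, n = 8), a ratio of 1.19. The exception was 1151-GAL4 replicate 2, with 1682 in myoblasts and 1759 in epithelium (ratio 0.957), and the largest ratio, 1.44, was that of 1151>mCherry-RNAi replicate 5, with 1879 and 1308. By stock the log2 difference ran from -0.06 to 0.28 in 1151-GAL4 libraries and from 0.17 to 0.52 in 1151>mCherry-RNAi libraries. A level is a share of the class's transcripts, so more RNA of these genes and less RNA of other genes per cell could not be told apart.

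**Figure D1:**
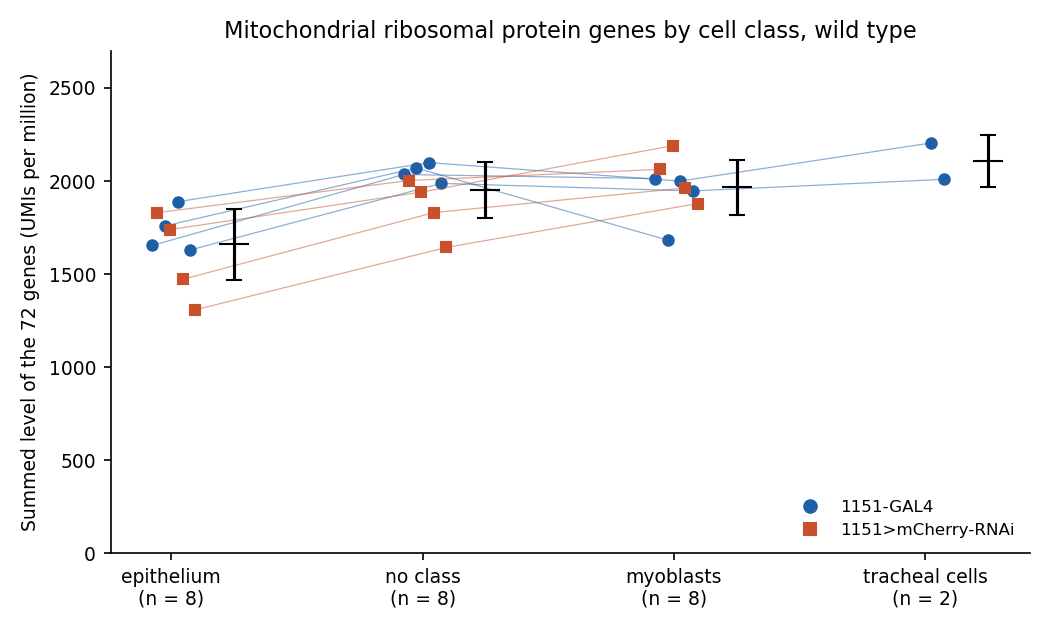
Summed level of the 72 mitochondrial ribosomal protein genes (y axis, CPM, UMIs per 1000000 UMIs of the class) in each wild-type library by cell class (x axis). Each point is 1 library, lines join the classes of a library, and black bars give the mean and SD. Myoblasts (mean 1967) were above epithelium (mean 1660) in 7 of 8 libraries, and barcodes with no class (mean 1951) in 8 of 8.

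Both subunits had this order. The 46 large-subunit genes summed to 1315 ± 174 CPM in myoblasts and 1092 ± 139 in epithelium, and the 26 small-subunit genes to 652 ± 71.0 and 568 ± 62.7 (SD, n = 8), each with myoblasts higher in 7 of 8 libraries. Myoblast barcodes were shallower than epithelial ones, with library medians from 515 to 937 UMIs against 555 to 1250.5, so the sums were also taken among cells of like depth. Cells of 200 to 500 UMIs gave 1926 in myoblasts and 1736 in epithelium (higher in 7 of 8 libraries), cells of 500 to 1000 gave 1848 and 1659 (6 of 8), cells of 1000 to 2000 gave 1949 and 1712 (7 of 8), and cells above 2000 gave 2202 and 1715 (5 of the 5 libraries with enough cells). Cells were also thinned to 400 UMIs, which left out 529 myoblasts and 1183 epithelial cells that were shallower. A thinned myoblast held 0.794 member UMIs and a thinned epithelial cell 0.651 (medians over libraries), again with myoblasts higher in 7 of 8. Without thinning the values were 1.66 and 2.70. Barcodes with no class held 1951 ± 149 CPM (SD, n = 8), above the epithelium in 8 of 8 libraries and above the myoblasts in 4 of 8. The epithelium thus stood below both the myoblasts and the barcodes outside either class.

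Single members were compared between the classes with edgeR's quasi-likelihood test on UMIs summed per library and class, with the library as a block and Benjamini-Hochberg adjustment over all genes tested, and were called at an adjusted p below 0.05. Myoblasts and epithelium differ in a large part of their transcripts: of 4752 genes with enough UMIs 47.0% were called, 21.7% higher and 25.3% lower in myoblasts. Of the 72 members, 61 had enough UMIs to be tested, and 19 of these (31.1%) were called higher and 1 (1.64%) lower. Positive differences were found for 48 of the 61, and their median was 0.22 on the log2 scale, against a median of -0.02 and 48.4% positive over all genes tested. The 11 untested members, with 30 to 66 myoblast UMIs each, were higher in myoblasts by their mean level in 10 cases. By the number of libraries they were higher in 8 cases. Because a filter on low counts favours genes high in either class, the test was repeated on every gene with a UMI, where 5.91% of 16158 genes were called higher, and then 12 of all 72 members (16.7%) were called higher, 1 (1.39%) lower against 11.1% of all genes, and the median of the 72 was 0.18 against -0.13 over all genes.

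The 12 large-subunit genes called higher included some with counterparts at several sites of the bacterial ribosome. Proteins of the mobile stalks or their bases were mRpL1 (difference of 0.79 on the log2 scale), mRpL11 (0.75) and mRpL12 (0.58), the last of which contacts elongation factors in bacteria. mRpL3 (0.59), mRpL14 (0.69) and mRpL27 (0.41) have bacterial counterparts near the peptidyl transferase centre or on the face that meets the small subunit, and mRpL22 (0.38) and mRpL23 (0.71) line the tunnel through which the new peptide leaves. Members of the same sites that were not called included mRpL2 (0.28, edgeR adjusted p = 0.154) and mRpL16 (0.11, edgeR adjusted p = 0.671) by the peptidyl transferase centre and mRpL4 (0.18, edgeR adjusted p = 0.51) in the tunnel, and mRpL10 of the stalk base had too few UMIs to be tested, so no site was called as a whole. mRpL44 (1.33), which belongs to a family related to RNase III, mRpL46 (0.61), mRpL51 (0.44) and mRpL55 (0.37) have no counterpart in bacterial ribosomes. The level of mRpL12 was 67.2 ± 14.6 CPM in myoblasts and 47.0 ± 5.75 in epithelium (SD, n = 8), and it was higher in 7 of 8 libraries.

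The 7 small-subunit genes called higher were mRpS29 (0.74), a GTP-binding protein known in human cells as DAP3, mRpS9 (0.61), mRpS28 (0.57), mRpS7 (0.51), mRpS2 (0.50), mRpS14 (0.46) and mRpS5 (0.32). These were 7 of 22 small-subunit genes tested, and of 39 large-subunit genes 12 were called higher and 1 lower. The mean of mRpS9 was higher in myoblasts in 1151-GAL4 alone, 41.6 ± 11.3 CPM against 27.7 ± 6.42 in epithelium (SD, n = 4). In 1151>mCherry-RNAi mRpS9 had 17.1 ± 2.18 CPM in myoblasts and 18.9 ± 8.81 in epithelium (SD, n = 4). Of 35 tested members with a bacterial counterpart 13 were called higher and 1 lower. Of 26 found in mitochondria alone 6 were called higher, a share near the 21.7% of all genes tested. The median differences of the kinds were 0.22 and 0.19. With no filter 9 of 43 members with a counterpart and 3 of 29 without were called higher, against 5.91% of all genes. Their medians in that fit were 0.21 and 0.06, against -0.13 over all genes. The members called higher other than mRpL44 differed by 0.32 to 0.79 on the log2 scale. Of the 19 called higher, 9 were higher in 7 or 8 libraries and 10 in 5 or 6 of 8, and the members that were not called ranged from -0.36 to 0.47. The counts depended on the deepest libraries and on the block: 13 members were called without 1151-GAL4 replicate 3, 10 without 1151-GAL4 replicate 4, 8 without the library block, and 4, of 25 tested, in the 1151>mCherry-RNAi libraries alone. The share of all genes called in these reduced fits was not compared. The counts thus do not show whether members lost more calls than other genes.

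**Figure D2:**
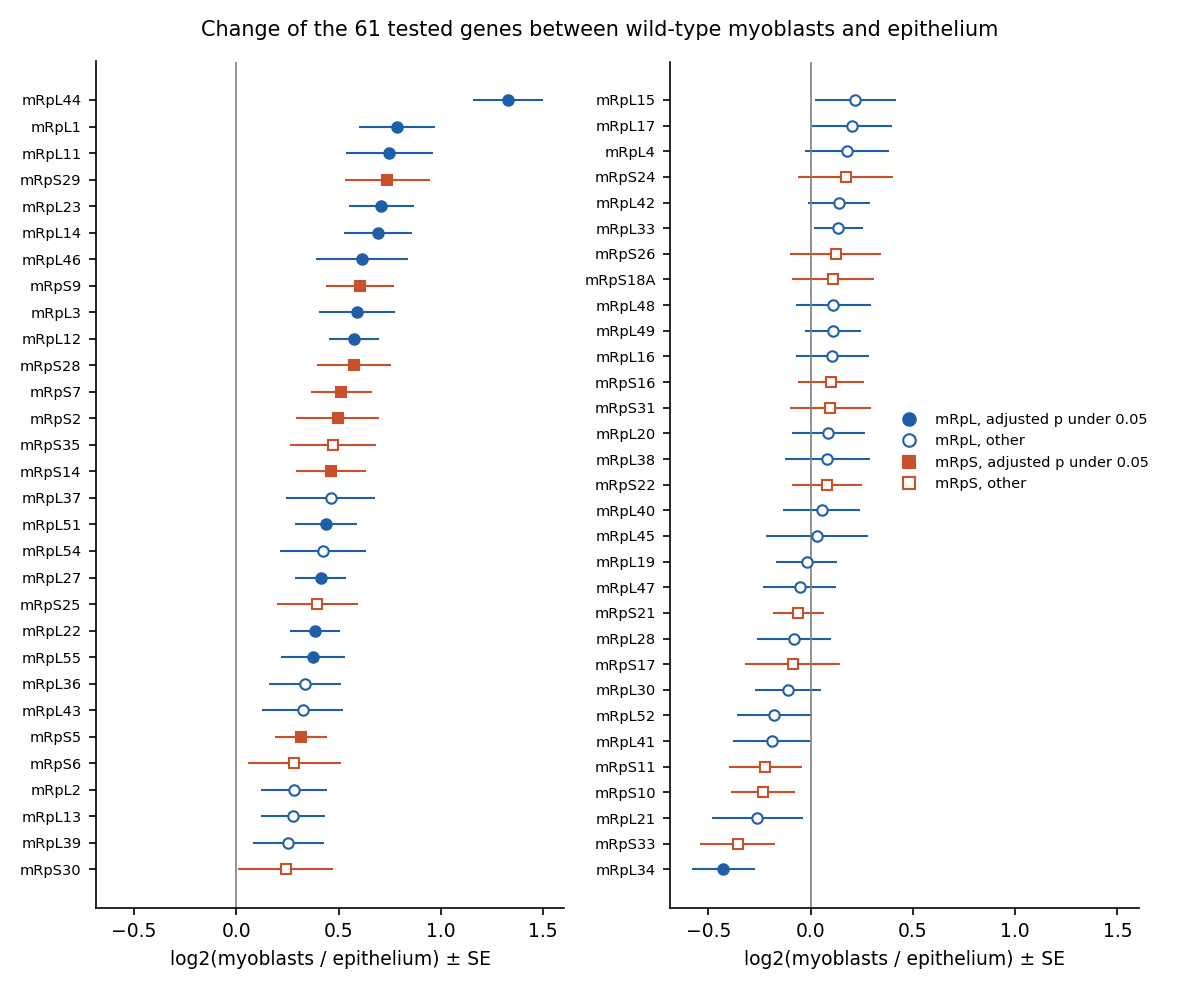
Difference of each of the 61 tested genes between wild-type myoblasts and epithelium (x axis, log2). Bars are standard errors derived from the F statistic of the edgeR test. Genes are ordered from the highest at top left to the lowest at bottom right. Circles are large-subunit and squares small-subunit genes, and filled symbols have an adjusted p below 0.05. Filled symbols are 19 genes above 0 and mRpL34 below it.

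Called members with the same order in every library were mRpL44 and mRpS7, higher in myoblasts in 8 of 8, and mRpL34, lower in 8 of 8. mRpL44 (FBgn0037330) lies on 3R:5469463-5470636 in BDGP6, minus strand. In myoblasts its level was 22.6 CPM at the lowest, 39.4 at the median and 61.4 at the highest, and in epithelium 8.29, 15.4 and 35.2, from 163 and 209 UMIs. The ranges overlapped between libraries, and within each of them the myoblast value was the higher, with means of 42.2 ± 16.6 and 18.3 ± 9.92 (SD, n = 8). The difference was 1.33 ± 0.17 on the log2 scale (SE, edgeR adjusted p = 1.85e-08), the largest of the 61, and stayed between 1.28 and 1.44 with any 1 library left out. The last 104 bases of mRpL44 overlap the end of POLDIP2 on the other strand, and POLDIP2 had 9.29 ± 8.85 CPM in myoblasts and 5.87 ± 3.19 in epithelium (SD, n = 8), higher in myoblasts in 5 of 8. The part of such reads in the mRpL44 counts was not tested.

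mRpS7, whose bacterial counterpart starts the assembly of the head of the small subunit, lies on 2L:10386662-10387652, plus strand, and overlaps no other gene. Its level was 27.2, 42.4 and 64.8 CPM in myoblasts (lowest, median and highest of 8) and 24.3, 28.8 and 45.9 in epithelium. The classes overlapped widely between libraries, and the difference of 0.51 ± 0.15 on the log2 scale (SE, edgeR adjusted p = 0.0037) rested on the order within libraries. It was no longer called without 1151-GAL4 replicate 4 (edgeR adjusted p = 0.0547) or in the 1151>mCherry-RNAi libraries alone (edgeR adjusted p = 0.262). mRpL34, a small protein of the large subunit on 2R:16098948-16099337, plus strand, went the other way. Its level was 9.08, 30.8 and 51.7 CPM in myoblasts and 20.1, 42.4 and 60.0 in epithelium, a difference of -0.43 ± 0.16 on the log2 scale (SE, edgeR adjusted p = 0.0223). This call was lost under DESeq2 (adjusted p = 0.0568), without the library block (edgeR adjusted p = 0.292), in the 1151>mCherry-RNAi libraries alone (edgeR adjusted p = 0.54), and without 1151-GAL4 replicate 1 (edgeR adjusted p = 0.0651), 1151-GAL4 replicate 4 (edgeR adjusted p = 0.119) or 1151>mCherry-RNAi replicate 7 (edgeR adjusted p = 0.0674). The end of mRpL34 shares 32 bases with CG8414 on the other strand, whose level was 42.9 ± 10.7 in myoblasts and 24.0 ± 6.04 CPM in epithelium (SD, n = 8), the reverse of the order of mRpL34.

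**Figure D3:**
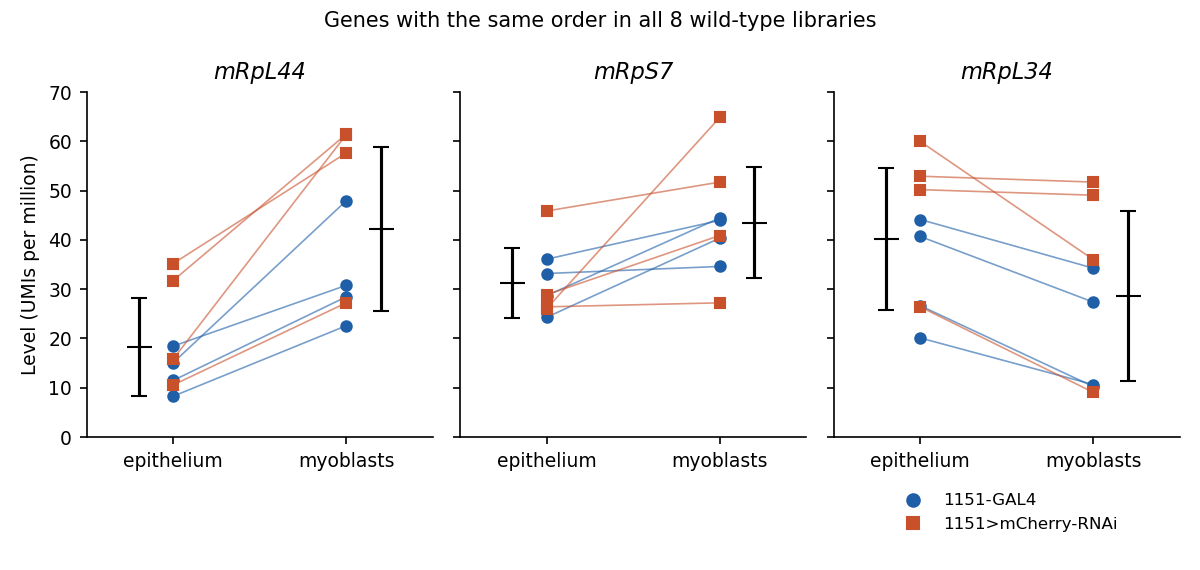
Levels of mRpL44, mRpS7 and mRpL34 (y axis, CPM) in epithelium and myoblasts of the 8 wild-type libraries. Lines join the classes of 1 library, and black bars give the mean and SD. Every line rises for mRpL44 and mRpS7 and falls for mRpL34, while the ranges of the classes overlap.

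Genes that act with the mitochondrial ribosome were read from the same fit, in which 21.7% of all genes were called higher and 25.3% lower. The mitochondrial ribosomal proteins that carry older symbols, tko (the counterpart of bacterial S12) and bonsai (of S15), were not called (0 of 2, 0 at an unadjusted p below 0.05 with edgeR), and their summed level was higher in myoblasts in 4 of 8 libraries. Of 37 factors for mitochondrial translation and mitochondrial RNA, 9 were tested, and 6 were called higher in myoblasts, with a summed level that was higher in 8 of 8 libraries by 0.41 ± 0.18 on the log2 scale (SD, n = 8). Nuclear-encoded subunits of the respiratory chain, which the products of mitochondrial translation join, had 46 of 78 tested genes called higher, and their sum was higher in 8 of 8 libraries by 0.22 ± 0.07. Of the transcripts of the mitochondrial genome itself 3 of 17 were called higher and 4 lower, shares near those of all genes, and their sum was higher in myoblasts in 2 of 8 libraries (-0.08 ± 0.14). Cytoplasmic ribosomal proteins had 79 of 84 genes called higher, with a summed difference of 0.22 ± 0.04 in 8 of 8 libraries, and genes of growth and the nucleolus had 15 of 21, with 0.69 ± 0.13. The mitochondrial ribosomal proteins thus differed by about as much as the cytoplasmic ones in the mean (0.25 and 0.22). The spread of the mitochondrial ones between libraries was 0.19 in place of 0.04. Their sums rested on few UMIs, down to 207 in the myoblasts of 1151>mCherry-RNAi replicate 5. The part of counting error in this spread was not tested.

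Tracheal cells could be compared with epithelium in only the 2 libraries that held at least 10 of them, 1151-GAL4 replicate 3 (35 cells) and replicate 4 (46 cells). The 3 further tracheal markers summed to 359 and 822 CPM in the tracheal cells of the 2 libraries against 119 to 210 in wild-type epithelium, but the 4 further epithelial markers were also high there, at 857 and 998, and the 4 further myoblast markers, at 471 and 583, lay above the 185 to 256 of the epithelium. The part of RNA from such cells in the tracheal values was not tested. The summed level of the members was 2205 and 2009 CPM in tracheal cells and 1889 and 1629 in epithelium, higher by 0.22 and 0.30 on the log2 scale. Tracheal barcodes were deeper, with library medians of 3766 to 4009.5 UMIs per cell against 1000 to 1250.5 in 1151-GAL4 epithelium. The mean of the summed differences, 0.26, was 0.39 with cells thinned to 400 UMIs. Among cells of 500 to 1500 UMIs it was also 0.39, but that window held only 7 and 2 tracheal cells in replicates 3 and 4. These are fewer than the 10 otherwise required, so no conclusion was drawn from that window. Of 6821 genes tested 3.25% were called, and 756 had an unadjusted p below 0.05 with edgeR. Of the 72 members none was called by edgeR or DESeq2, with 5 at an unadjusted p below 0.05. The median difference of the members was 0.15 with 48 of 72 positive, against -0.05 over all genes, but it was 0.01 with 38 of 72 positive with no filter (-0.89 over all genes) and -0.06 over the 39 members tested with cells thinned to 400 UMIs, so the single-gene differences gave no settled direction. The 5 were mRpS18C (1.51), mRpS17 (1.36), mRpS14 (1.01) and mRpL2 (0.96), with higher values in tracheal cells, and mRpL17 (-2.53, from 1 tracheal UMI), and edgeR gave them adjusted p-values of 0.186 to 0.387. The tracheal cells of these libraries held 801 member UMIs in all.

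Within the wild-type myoblasts, cells were split by the presence of a UMI of h (hairy, a basic helix-loop-helix repressor), Sp1 (a zinc-finger factor known for its part in leg growth) or chinmo (a BTB zinc-finger protein known for setting temporal identity in neurons). Cells with a UMI of h (577 in the 7 libraries with at least 10 of them) had 2208 ± 137 CPM of the members and cells without 1938 ± 173 (SD, n = 7), higher in 7 of 7 libraries by 0.03 to 0.45 on the log2 scale, with a mean of 0.19 ± 0.17. Cells with h were also deeper, with medians of 567 to 1332.5 UMIs per cell against 511.5 to 891. Among cells thinned to 400 UMIs the mean difference was 0.20, with 5 of 7 libraries positive, and among cells of 500 to 1500 UMIs it was 0.19, with 5 of 7, so the order did not hold in every library at like depth. Within bins of depth, cells with h were higher in 1 of 3 libraries at 200 to 500 UMIs, 4 of 6 at 500 to 1000, 3 of 6 at 1000 to 2000 and 2 of 2 above 2000. Of 1961 genes tested 1.73% were called, and of the 6 members tested none was called by edgeR, none had an unadjusted p below 0.05 and none was called by DESeq2. With no filter 2.01% of 14200 genes were called, none of the 72 members was, and 5 had an unadjusted p below 0.05. How many of all genes had such a p in this fit was not compared. Of the 72 members 22 were positive in it, with a median of -0.16 on the log2 scale. Over all genes 27.8% were positive, with a median of -0.41. The members with the largest differences among the 6 were mRpS21, 64.4 ± 36.1 with h and 46.2 ± 18.5 CPM without, and mRpL27, 79.1 ± 38.0 and 58.3 ± 10.4 (SD, n = 7), whose spreads overlapped. The sums of other lists in cells with h were higher by 0.08 on the log2 scale in 6 of 7 libraries for the respiratory chain, by 0.11 in 5 of 7 for growth and nucleolar genes, and lower by a mean difference of -0.02 for cytoplasmic ribosomal proteins, which were higher in 2 of 7.

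Cells with a UMI of Sp1 were few, 175 in 5 libraries. Their summed level was 1845 ± 106 CPM and that of cells without 1977 ± 70.4 (SD, n = 5), lower in 4 of 5 libraries, with a mean difference of -0.10 ± 0.11 on the log2 scale. Of 1182 genes tested 1.86% were called, and no member had enough UMIs to be tested. With no filter 0.215% of 13922 genes were called, and none of the 72 members was, by edgeR. Of the members 11 had an unadjusted p below 0.05, of which mRpL3 was the 1 with a higher value in cells with Sp1. How many of all genes had such a p was not compared. Lower values were the rule in this fit, where 19.1% of all genes were positive with a median of -0.90, and 19 of the 72 members were positive with a median of -0.55. Cells with a UMI of chinmo had 1956 ± 167 CPM and cells without 1968 ± 157 (SD, n = 8), higher in 4 of 8 libraries, with a mean difference of -0.01 ± 0.12. Of 1556 genes tested 2.89% were called and of the 3 members tested none, by edgeR or DESeq2. Of the 1556 genes 178 had an unadjusted p below 0.05 with edgeR. Among the 3 members mRpL12 alone did, with 79.3 ± 31.4 CPM in cells with chinmo and 64.5 ± 16.8 without (SD, n = 8, difference of 0.44, edgeR adjusted p = 0.348). The splits shared few cells, with 119 myoblasts holding both h and chinmo, 13 Sp1 and chinmo, and 9 h and Sp1. A difference between the h and chinmo splits was not tested.

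**Figure D4:**
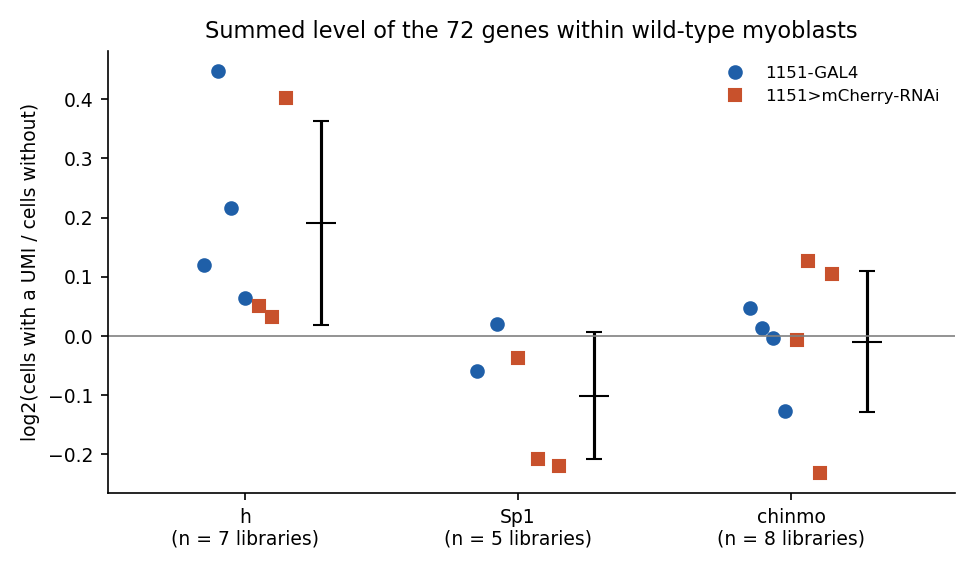
Summed level of the 72 genes in myoblasts with a UMI of h, Sp1 or chinmo over that in myoblasts of the same library without (y axis, log2). Each point is 1 library and black bars give the mean and SD over 7, 5 and 8 libraries. All 7 points for h lie above 0, those for Sp1 lie below 0 in 4 of 5, and those for chinmo lie on both sides.

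The summed levels of the wild-type stocks overlapped in each class. They were 1910 ± 155 CPM in 1151-GAL4 and 2023 ± 134 in 1151>mCherry-RNAi myoblasts, and 1733 ± 118 and 1587 ± 240 in epithelium (SD, n = 4 each). Myoblasts differed from epithelium by -0.06 to 0.28 on the log2 scale in 1151-GAL4 libraries and by 0.17 to 0.52 in 1151>mCherry-RNAi libraries. Single members differed between the stocks. In myoblasts 12.5% of 2514 genes were called between the stocks, and of 22 members tested mRpS9 was called lower in 1151>mCherry-RNAi. Its level was 34.6, 58.1, 39.4 and 34.1 CPM in 1151-GAL4 replicates 1 to 4 and 18.2, 19.4, 14.4 and 16.4 in 1151>mCherry-RNAi replicates 5 to 8. The groups did not overlap, and the difference was -1.24 ± 0.37 on the log2 scale (SE, edgeR adjusted p = 0.0381), but the 1151>mCherry-RNAi values rested on 14 UMIs in all. The call was lost with DESeq2 (adjusted p = 0.0697) and without TMM (edgeR adjusted p = 0.0526). mRpS9 overlaps 2 genes on the other strand, ArgRS-m over 874 bases and wtrw over 9817. In myoblasts ArgRS-m had 18 UMIs in 1151-GAL4 and 0 in 1151>mCherry-RNAi, and wtrw had means of 2.42 CPM in both. The part of such reads in the mRpS9 counts was not tested.

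mRpL39, a large-subunit protein found in mitochondria alone, differed in both classes. In epithelium it had 29.2, 30.7, 31.3 and 27.4 CPM in 1151-GAL4 replicates 1 to 4 and 21.1, 12.9, 15.6 and 13.8 in 1151>mCherry-RNAi replicates 5 to 8. The groups did not overlap, with a difference of -0.92 ± 0.25 on the log2 scale (SE, edgeR adjusted p = 0.0285). In myoblasts it had 29.3, 37.6, 39.4 and 35.1 against 0, 16.2, 7.20 and 8.18 CPM, also with no overlap, from 156 and 8 UMIs. It had too few UMIs there for the filtered test, and without the filter, where 2.23% of 14275 genes were called, it was called with mRpS9, with a difference of -2.11 ± 0.50 (SE, edgeR adjusted p = 0.00321). In epithelium 10.4% of 5297 genes were called, and of 64 members mRpL39 and mRpL51 (-0.86, edgeR adjusted p = 0.0494) were lower and mRpL44 (1.02, edgeR adjusted p = 0.0485) higher in 1151>mCherry-RNAi. mRpL44 overlapped between the stocks, with 8.29 to 18.4 against 10.6 to 35.2 CPM, and so did mRpL51, with 29.2 to 47.3 against 16.5 to 30.0. On the other strand mRpL39 shares 3 bases with Zip71B and mRpL51 shares 3 with PIG-U. With no filter 4.17% of 15915 genes and 6 of the 72 members were called, all 6 lower in 1151>mCherry-RNAi: mRpL33, mRpL35, mRpL39, mRpL51, mRpS24 and mRpS34. Values in this fit were shifted down as a whole, with 380 of the 663 genes called being lower. The median was -0.20 over all genes and -0.13 over the members.

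The number of calls changed with the libraries used, while the differences themselves moved less. With 1 library left out the difference was -1.34 to -1.16 on the log2 scale for mRpS9 in myoblasts, in the 6 of 8 fits that tested it, and in epithelium -1.06 to -0.76 for mRpL39, -1.01 to -0.65 for mRpL51 and 0.78 to 1.21 for mRpL44. In epithelium no call was left without 1151-GAL4 replicate 3, 1151-GAL4 replicate 4, 1151>mCherry-RNAi replicate 7 or 1151>mCherry-RNAi replicate 8, 1 without 1151>mCherry-RNAi replicate 6, and 7 were found without 1151>mCherry-RNAi replicate 5. In myoblasts none was left without 1151-GAL4 replicate 2, 3 or 4 or 1151>mCherry-RNAi replicate 7 or 8, and 2 were found without 1151>mCherry-RNAi replicate 5. The share of all genes called in these reduced fits was not compared. The counts thus do not show whether calls changed more for members than for other genes. The stocks also differed in depth, with medians of 748 to 937 UMIs per myoblast in 1151-GAL4 and 515 to 729 in 1151>mCherry-RNAi, and stock and depth could not be told apart.

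**Figure D5:**
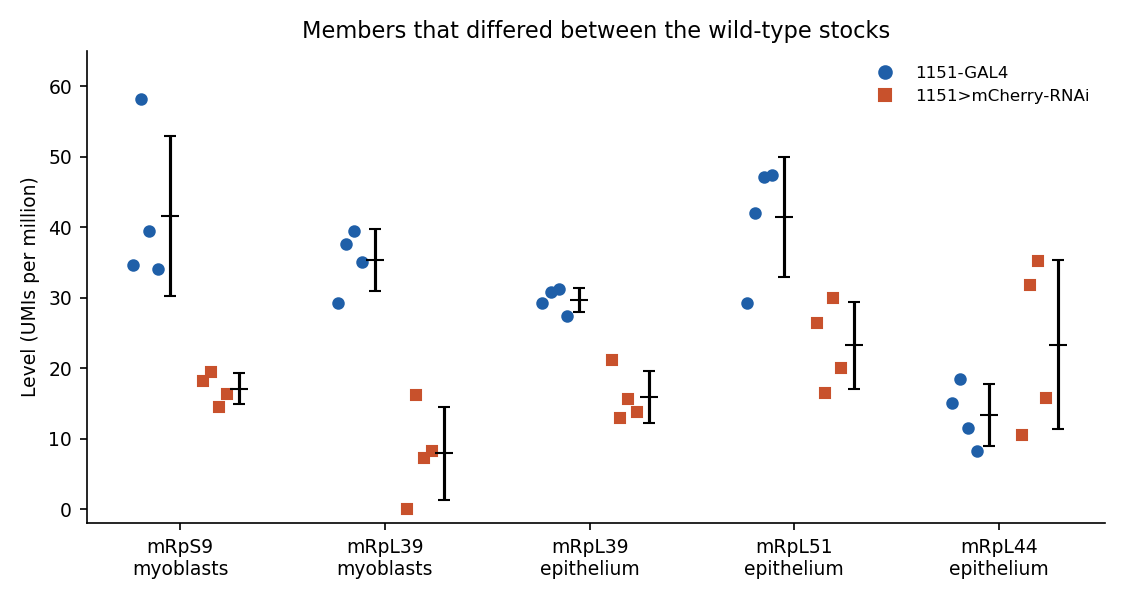
Levels of members that differed between the wild-type stocks (y axis, CPM) in the class named under each gene. Each point is 1 library and black bars give the mean and SD of 4 libraries. The stocks do not overlap for mRpS9 in myoblasts or for mRpL39 in either class, and overlap for mRpL51 and mRpL44 in epithelium.

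In the 3 libraries labelled 1151>Ama-RNAi, the counts did not show the target lowered in the cells that remained. Where the hairpin's target lies in the transcript relative to the counted 3′ end was not checked, so these UMIs are a limited check of the label. Ama had 160, 381 and 217 CPM in the myoblasts of replicates 1, 4 and 5, from 1, 8 and 7 UMIs, against 36.3 to 225 with a median of 153 in the 8 wild-type libraries. In epithelium it had 78.6, 86.8 and 64.4 against 42.3 to 116. The epithelial values lay within the wild-type range, and the myoblast value of replicate 4 lay above it. Only 6, 14 and 33 barcodes met the myoblast rule, and their 4 further myoblast markers summed to 905 to 1299 CPM, below the wild-type range of 2002 to 2732. The 4 further epithelial markers summed to 191 to 479 CPM in them against 37.6 to 180 in wild-type myoblasts, and the haemocyte markers Hml and srp to 0 to 160 against 0 to 22.6, with no UMI of the fat body markers. The part of other cells' RNA in the values below was not tested.

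The remaining myoblasts held 14, 67 and 53 member UMIs, which gave summed levels of 2235 (95% exact Poisson interval 1222 to 3749), 3193 (2474 to 4055) and 1639 (1228 to 2144) CPM, intervals that cover counting error only. Replicates 1 and 4 lay above and replicate 5 below the wild-type range of 1682 to 2190, and the interval lay wholly outside it only for replicate 4. Of the 72 members 23 had no UMI in these cells, mRpL44 among them, but 0 of 59580 UMIs of the class allows up to 50.4 CPM (3 counts over the 3 libraries), and only 6 members had a wild-type mean above that. Of 2699 genes tested 0.445% were called, and 359 had an unadjusted p below 0.05 with edgeR. Of 28 members none was called by edgeR, with 4 at an unadjusted p below 0.05. DESeq2 called 1, mRpL11 (edgeR adjusted p = 0.202), whose values were 92.8 to 160 CPM from 7 UMIs against 9.08 to 40.9 in wild type. Differences in single members were thus mostly not detectable at this depth.

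The epithelium of the libraries labelled 1151>Ama-RNAi had enough cells, 525 to 1179 per library, for the members to be compared. The summed level was 1870, 1941 and 1597 CPM in replicates 1, 4 and 5, with a mean of 1803 ± 182 (SD, n = 3) against 1660 ± 192 (SD, n = 8) in wild type, and the groups overlapped. Of 5816 genes tested 0.0516% were called, and 224 had an unadjusted p below 0.05 with edgeR. Of 69 members none was called by edgeR or DESeq2, with 4 at an unadjusted p below 0.05. The median of the members was 0.08 on the log2 scale, against -0.02 over all genes, and it was -0.03 without 1151>Ama-RNAi replicate 1, 0.19 without 1151>Ama-RNAi replicate 5, 0.15 without 1151-GAL4 replicate 3 and 0.02 with no filter. The smallest p was that of mRpS7, with 45.7, 45.5 and 46.4 CPM in replicates 1, 4 and 5 against 24.3 to 45.9 in wild type, a difference of 0.57 ± 0.19 (SE, edgeR adjusted p = 0.999). mRpL20 (45.0 ± 4.26 against 30.9 ± 7.54 CPM) and mRpL18 (13.1 ± 3.40 against 6.77 ± 2.84) also had higher values, and mRpL44 a lower one (8.69 ± 2.17 against 18.3 ± 9.92, SD, n = 3 and 8), none of them called. Whether the members differed in their response between the classes was tested as an interaction. By edgeR 4.23% of 5841 genes were called, and 897 had an unadjusted p below 0.05. None of 68 members was called, with 8 at an unadjusted p below 0.05. DESeq2 was not run for the interaction. The lowest adjusted p was that of mRpL20 (0.0995), which had no UMI in the remaining myoblasts.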

How the data were processed

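Single-cell transcriptomes of 11 Drop-seq libraries were analysed. The authors aligned reads with STAR to BDGP6, checked them with FastQC, counted UMIs per gene and barcode with the Drop-seq DigitalExpression program, chose barcodes from the knee of the read distribution and deposited the raw UMI counts, unnormalized. No aligner version and no strand setting is given in the sources used here. The deposited matrices list genes by symbol, and 0 columns of other series were present.

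Barcodes were classed as described above. Doublets were not called, and cells that met rules of both lists had no class. The study clustered its cells, and the classes here are rebuilt from markers, so differences from its classes are possible. Levels are CPM, the UMIs of a gene per 1000000 UMIs of its class and library. Classes with fewer than 10 cells in a library were left out, except in the libraries labelled 1151>Ama-RNAi, all of which were kept. UMIs were summed per library and class and compared with edgeR 4.0.16 (glmQLFit, glmQLFTest, TMM, filterByExpr, R 4.3.3), with the library as a block within wild type and no block between groups, Benjamini-Hochberg adjustment over all genes tested and a threshold of 0.05. The standard error (SE) of an edgeR difference was derived as its absolute value divided by the square root of the test's F statistic. DESeq2 1.42.0 was an alternative. Sums over members were described without a test. The edgeR script was tested on simulated data. Whether replicates came from separate pools of discs is not given in the labels, so p-values measure the spread between these libraries. UMIs count molecules, and intervals and floors cover counting error only.

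The members and lists were chosen with earlier results of these data known. Members were named when they were called and had 1 order in every library (up to 5 per direction), and for comparisons between groups when they had the 5 smallest p-values, of which the text gives a part. The 5 with the most UMIs, all called members, and those that the text gives for a low unadjusted p were named as well, the last after their values were seen, as were mRpL2, mRpL4, mRpL10 and mRpL16, given for their sites. The order within libraries was first read from ratios with 0.5 UMI added and then, after the values were seen, from the levels themselves, which added mRpL34. Replicate numbers are those of the titles in the labels, and the descriptions there number the 1151>mCherry-RNAi libraries otherwise. Numbers 1, 4 and 5 occur in wild type and in the libraries labelled 1151>Ama-RNAi. Positions are from the BDGP6 annotation, Python 3.11.15 was used for summaries, and no sequences were used here.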

Additional observations from a re-analysis of the deposited data

Results flagged for a closer look

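Levels of the named members were compared within groups of 4 libraries or more, and in 4 of 51 such groups 1 library stood apart by Dixon's criterion, where chance alone gives about 1 in 20. In 1151-GAL4 myoblasts, mRpL27 was highest in replicate 3, at 73.7 CPM, and mRpS5 was lowest in replicate 4, at 59.6. In 1151>mCherry-RNAi, mRpL44 was lowest in the myoblasts of replicate 5, at 27.2 CPM from 3 UMIs, and mRpS7 was highest in the epithelium of replicate 6, at 45.9.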

How the results depend on the processing

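The 20 members called between wild-type myoblasts and epithelium became 13 with no filter on low counts, 2 with cells thinned to 400 UMIs (2 tested), 8 with no library block and 4 in the 1151>mCherry-RNAi libraries alone, and 10 to 22 when 1 library was left out. Except with no filter, these counts were not compared with the share of all genes called in the same fit. Settings added after the data were seen gave 3 with thinning and no filter and 1 among cells of 500 to 1500 UMIs (5 tested). With thinning and no filter mRpL44 was still called, and mRpS7 was not (edgeR adjusted p = 0.139). The summed difference between these classes was 0.21 to 0.30 without any 1 library, 0.14 in 1151-GAL4 and 0.36 in 1151>mCherry-RNAi alone. Between the stocks, the 1 call in myoblasts became 0 with DESeq2, 0 without TMM, 2 with no filter, 0 with thinning, 0 with thinning and no filter, and 0 to 2 without 1 library. The 3 calls in epithelium became 6 with no filter, 1 with thinning and 0 to 7 without 1 library. Except with no filter, these counts between stocks were also not compared with the share of all genes called. For the libraries labelled 1151>Ama-RNAi, DESeq2 called 1 member in myoblasts in place of 0. Same-numbered libraries of wild type and 1151>Ama-RNAi did not deviate together in epithelium (r of -0.04, 0.03 and -0.06), so their numbers, taken from the titles, were not taken as pairs, and with the replicate number as a block 0 members were called in either class, with 0 tested in myoblasts and 67 in epithelium. Tracheal cells could not be fitted with a library left out, as 1 library has no replicate. The number of UMIs limits which members can be tested: 11 of 72 could not be tested between myoblasts and epithelium, and 72 could not in the Sp1 split.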
